A study of Homo sapiens with 6 samples.

Results

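The amino acid response and serine synthesis genes described here are 46 genes of the 63677 in the count tables. They were chosen by symbol, as known targets of the transcription factor ATF4 together with amino acid transporters, serine and glycine enzymes and tRNA synthetases. The rule held no measured value, but the choice was made with earlier results of these data known. Shares of the group set beside those of all genes are therefore descriptions. The RNA came from SW480, an established human colorectal adenocarcinoma line. The cells carried a lentiviral vector with a doxycycline-inducible promoter that drove either POU5F1B or, in the control cells, green fluorescent protein (GFP). There were 3 GFP libraries and 3 POU5F1B libraries, and all 6 came from cells kept in 1 µg/mL doxycycline for 72 h, so both groups carried a vector, the drug and an expressed protein. The transduced cells were selected with puromycin, and the labels do not say whether the 3 replicates of a group were separate cultures, so the p-values below measure the spread between these libraries, which may be technical.

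ATF4 is a bZIP transcription factor whose messenger RNA is translated better when the initiation factor eIF2 is phosphorylated, for example by the kinase GCN2 when amino acids run short. With partners of the C/EBP family it binds composite elements near its target genes, which make, import and charge amino acids or, as with CHAC1 and DDIT3, respond to stress. Serine is made from a glycolytic intermediate by PHGDH, PSAT1 and PSPH, and its conversion to glycine by SHMT1 and SHMT2 feeds folate-bound one-carbon units to MTHFD2, MTHFD1L and ALDH1L2. Because much of the control of ATF4 acts on translation and protein stability, its transcript level alone is not a measure of its activity.

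The 46 genes were grouped by role into 7 regulators, 6 stress effectors, 3 serine synthesis enzymes, 5 folate one-carbon enzymes, 7 other amino acid enzymes, 9 transporters and 9 tRNA synthetases. Of these, 45 passed the filter on low counts and were tested. The exception was NUPR1, a small stress-induced chromatin protein and one of the 7 regulators, which was between 0 and 0.347 CPM (counts scaled to 1000000 per library, after TMM scaling), where 3 counts in 1 library correspond to 0.228 to 0.277 CPM. Compared per kilobase of exon, the mean GFP level of the 45 tested genes ran from 0.365 CPM per kb for ALDH1L2, a mitochondrial folate enzyme, to 488 CPM per kb for SLC1A5, a glutamine transporter. ATF4 itself stood at 104 CPM per kb.

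Libraries held 10767947 to 12787637 counts. POU5F1B itself was near 0 with GFP (at most 6 counts). It reached 1179, 1054 and 121 CPM in POU5F1B replicates 1, 2 and 3, so replicate 3 had the least of it. GFP replicate 3 stood apart from all other libraries: the chi-square over genes, divided by its degrees of freedom, was 97.8 against GFP replicate 1, where GFP replicates 1 and 2 gave 4.51, and its estimated quality weight was 0.111, against 0.575 to 2.79 for the others. Results that rest on it are therefore given with and without it, beside the result or under the processing alternatives. Of 9 colon epithelial markers, EPCAM (86.6 to 518 CPM) and the keratins were present, and CDX1 was at or near 0 (at most 2 counts). CDH17 had 77 counts in GFP replicate 3, 24 in POU5F1B replicate 3 and at most 1 elsewhere. GFP replicates 1 and 2 had the fewest counts of EPCAM (1030 and 1174, against 3029 to 5962) and CDH1 (400 and 396, against 836 to 2085). The same held for VIL1 (274 and 184, against 406 to 2420) and KRT19 (4063 and 3931, against 5237 to 7261). CDX2, at 158 to 445 counts, was lowest in POU5F1B replicate 2. The 4 leukocyte markers reached at most 1.35 CPM, the endothelial CDH5 and fibroblast COL3A1 were at or near 0, VWF was at 1.13 to 6.36 CPM and PDGFRB at 7.21 to 28.7 CPM, and COL1A1 was counted 1681 and 1553 times in GFP replicates 1 and 2 but 60 to 194 times in the other 4 libraries. The part of these library differences in the results below was not tested. In bulk RNA, fewer cells with a transcript and less of it per cell cannot be told apart.

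Promoters of the genes were read because ATF4 targets are known to share an element. The core of the C/EBP-ATF response element, TGATGNAA, was searched on both strands (TTNCATCA on the other) in windows from 250 bases before to 50 bases after RefSeq transcript starts. It was found in 14 of the 38 genes of the group that have a window (36.8%), against 2.60% of the 10558 tested genes with a window and 4.46% of all 27305 genes with one. The exact letters TGATGCAA, in either orientation, were in 9 of the group and in 1.08% of all genes. The 14 genes were ASNS, CEBPG, CHAC1, MTHFD1L, SLC1A4, SLC1A5, SLC3A2, SLC7A1, SLC38A1 and the tRNA synthetase genes AARS1, GARS1, IARS1, MARS1 and NARS1. MTHFD1L had 3 matches, each in a window with a different transcript start, so they may be the same site. The genes ALDH1L2, GPT2, LARS1, NUPR1, PSPH, PYCR1, SHMT2 and SLC7A11 had no window. A match describes letters only and is not evidence of binding.

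The windows of 6 of these genes are printed because their levels carry the results below: ASNS, CEBPG, NARS1 and GARS1 were high in GFP replicate 3, and CHAC1 and SLC1A4 were higher in every POU5F1B library than in any GFP library. They are RefSeq sequences (GRCh38.p14) that match GRCh37 letter for letter at chr7:97501671-97501970 (ASNS, minus strand), chr19:33864769-33865068 (CEBPG, plus), chr18:55289019-55289318 (NARS1, minus), chr7:30634244-30634543 (GARS1, plus), chr15:41245419-41245718 (CHAC1, plus) and chr2:65216283-65216582 (SLC1A4, plus). Each is written 5′ to 3′ on the strand of its gene, with the motif or its reverse complement in capitals.
ASNS: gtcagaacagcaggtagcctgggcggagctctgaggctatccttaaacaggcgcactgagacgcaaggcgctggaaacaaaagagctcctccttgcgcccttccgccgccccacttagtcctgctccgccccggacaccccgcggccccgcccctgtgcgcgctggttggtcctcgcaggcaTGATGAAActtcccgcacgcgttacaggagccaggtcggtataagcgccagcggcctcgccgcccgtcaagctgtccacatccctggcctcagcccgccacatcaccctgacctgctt
CEBPG: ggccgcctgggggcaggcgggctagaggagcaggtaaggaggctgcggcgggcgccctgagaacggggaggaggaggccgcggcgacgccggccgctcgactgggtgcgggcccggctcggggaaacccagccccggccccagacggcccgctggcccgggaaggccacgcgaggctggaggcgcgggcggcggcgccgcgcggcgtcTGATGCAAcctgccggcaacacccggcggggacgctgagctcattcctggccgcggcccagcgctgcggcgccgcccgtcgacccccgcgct
NARS1: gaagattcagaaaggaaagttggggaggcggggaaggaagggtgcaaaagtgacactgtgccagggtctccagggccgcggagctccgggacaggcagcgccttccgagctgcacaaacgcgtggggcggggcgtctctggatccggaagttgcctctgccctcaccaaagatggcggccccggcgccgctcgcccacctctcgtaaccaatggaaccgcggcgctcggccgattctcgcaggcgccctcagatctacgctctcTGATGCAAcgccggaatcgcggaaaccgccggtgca
GARS1: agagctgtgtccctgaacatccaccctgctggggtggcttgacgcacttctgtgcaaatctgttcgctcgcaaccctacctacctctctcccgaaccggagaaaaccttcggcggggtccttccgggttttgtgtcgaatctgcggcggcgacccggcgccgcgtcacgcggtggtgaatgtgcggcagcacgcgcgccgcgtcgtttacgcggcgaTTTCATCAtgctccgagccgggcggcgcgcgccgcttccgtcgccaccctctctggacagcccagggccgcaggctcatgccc
CHAC1: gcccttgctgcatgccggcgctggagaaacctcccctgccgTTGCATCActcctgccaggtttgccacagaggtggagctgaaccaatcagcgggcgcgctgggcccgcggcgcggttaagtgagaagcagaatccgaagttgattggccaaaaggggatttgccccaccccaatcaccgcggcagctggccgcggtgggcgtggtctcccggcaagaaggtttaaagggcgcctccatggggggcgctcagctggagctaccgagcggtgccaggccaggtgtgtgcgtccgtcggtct
SLC1A4: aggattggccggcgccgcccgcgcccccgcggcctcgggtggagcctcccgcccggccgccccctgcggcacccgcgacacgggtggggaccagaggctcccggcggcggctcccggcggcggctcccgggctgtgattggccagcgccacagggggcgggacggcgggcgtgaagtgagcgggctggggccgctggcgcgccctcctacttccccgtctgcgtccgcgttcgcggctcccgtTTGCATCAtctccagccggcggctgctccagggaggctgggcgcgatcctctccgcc
Counted from the transcript start, the motif lay at -68 to -61 in ASNS, -42 to -35 in CEBPG, -33 to -26 in GARS1, -209 to -202 in CHAC1 and -7 to 1 in SLC1A4, and inside the transcript at 15 to 22 in NARS1.

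To ask whether POU5F1B changed these transcripts, the 3 POU5F1B libraries were compared with the 3 GFP libraries gene by gene with limma voom over all 14286 genes that passed the filter. None of the 45 genes was past the threshold, an adjusted p under 0.05 with a fold change above 2, and neither was any other gene (0 of 14286, 0.0%). At an unadjusted p under 0.05, 7 of the 45 were higher with POU5F1B (15.6%, against 6.07% of all tested genes) and 4 were lower (8.89%, against 5.82%). The 7 were CEBPB, CHAC1, SESN2, PSPH, CBS, PCK2 and SLC1A4, and the 4 were GDF15, CTH, SLC38A2 and LARS1. DESeq2 gave 4 of the 45 an adjusted p under 0.05 (PSPH, CBS, SLC38A2 and SLC1A4; 8.89%, against 2.9% of the 14222 genes with an adjusted p), all below 2-fold, and the quasi-likelihood test of edgeR gave 0.

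The direction was mixed within the group: 23 genes had a positive and 22 a negative log2 fold change, with a median of 0.04, against -0.02 over all tested genes. The median of the group was 0.23 without GFP replicate 3 and 0.21 with replicates 1 and 2, where that of all tested genes was -0.0050. Read by library, 9 genes were higher in every POU5F1B library than in any GFP library (20.0%, against 10.2% of tested genes). These were the 7 above with SHMT1, the cytosolic serine hydroxymethyltransferase, whose exons overlap those of the opposite-strand gene SMCR8 (with 38.7% as many counts, also lowest in GFP replicate 3), so that its count is uncertain, and SLC7A1, a carrier of arginine and lysine. Another 5 were lower in every POU5F1B library (11.1%, against 9.24%), namely the 4 above and ATF5, a bZIP factor related to ATF4. The lower count was thus close to its background. Without GFP replicate 3 the counts were 27 higher (60.0%, against 24.9%) and 6 lower (13.3%, against 23.9%).

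**Figure D1:**
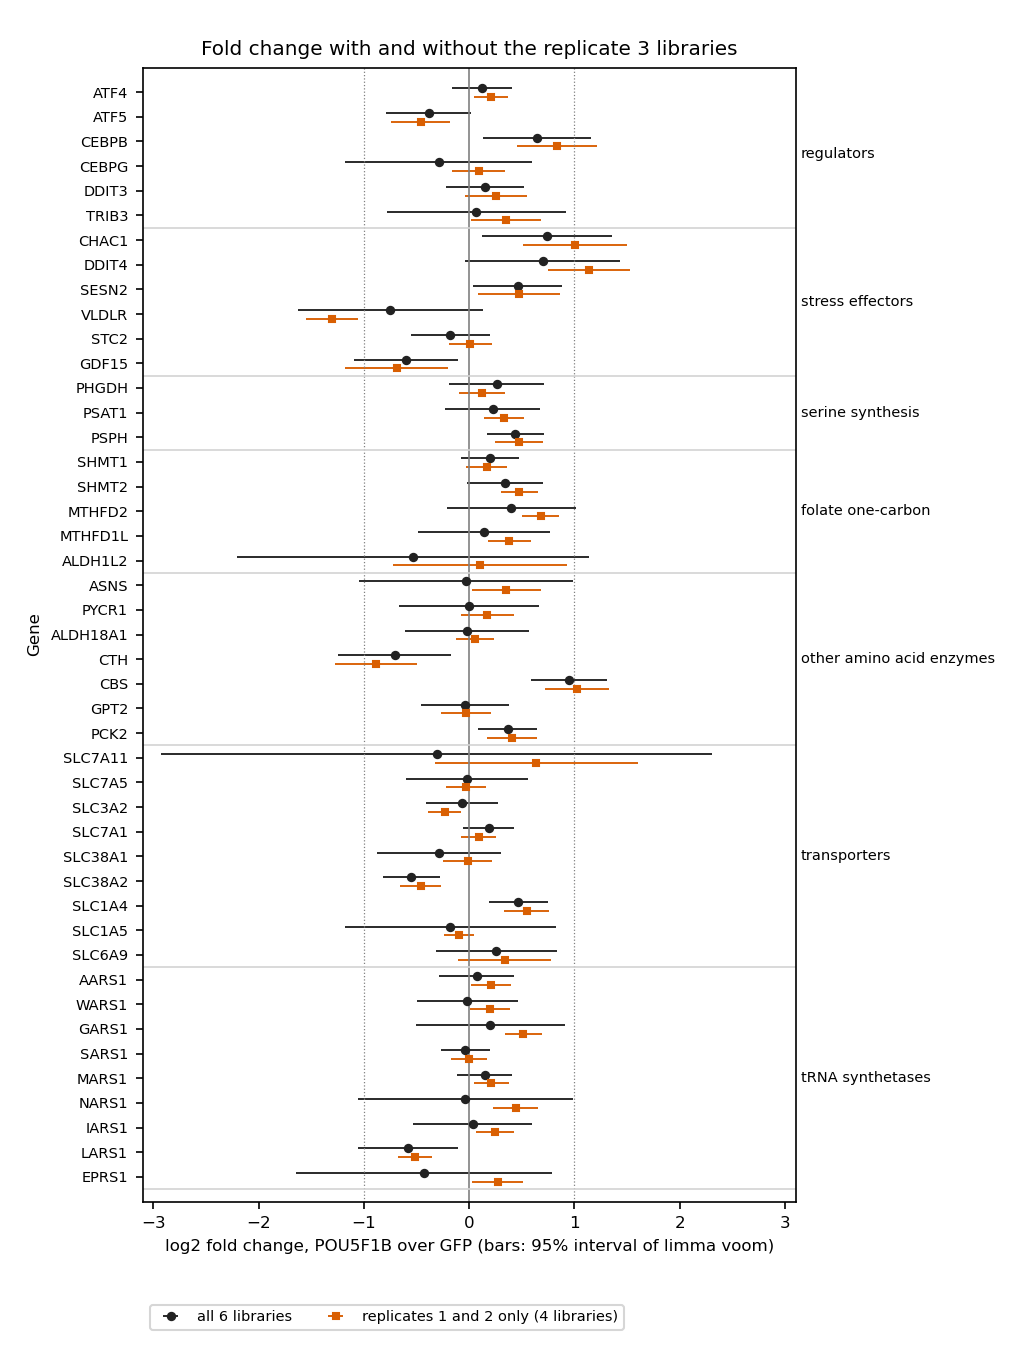
Log2 fold change of POU5F1B over GFP for the 45 tested genes (x axis) by role (y axis), with 95% intervals, from limma voom with all 6 libraries (black) and with replicates 1 and 2 of each group (orange). With all 6 the values run from -0.75 (VLDLR) to 0.95 (CBS), and the intervals of SLC7A11, ALDH1L2 and EPRS1 are the widest.

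Among the regulators, ATF4 (chr22:39915700-39918688, GRCh37, plus strand) was at 245, 259 and 314 CPM in GFP replicates 1, 2 and 3 and at 299, 288 and 298 CPM in the POU5F1B libraries. The groups overlapped through GFP replicate 3, and the log2 fold change was 0.12 ± 0.12 (adjusted p = 0.716, limma voom). With replicates 1 and 2 it was 0.21 ± 0.08 (adjusted p = 0.0587, limma voom). Here and below, log2 values are given ± SE, with n = 3 per group for all 6 libraries and n = 2 per group for replicates 1 and 2. CEBPB, a C/EBP partner of ATF4, was at 9.84, 10.5 and 15.1 CPM with GFP and at 20.0, 16.6 and 17.8 CPM with POU5F1B. All 3 POU5F1B libraries lay above the GFP libraries, and the log2 difference was 0.65 ± 0.22 (adjusted p = 0.340, limma voom). CEBPG, another C/EBP partner, was at 59.3, 74.0 and 170 CPM with GFP and at 69.1, 74.0 and 79.0 CPM with POU5F1B. There GFP replicate 3 was 2.15 times the highest other library, and the 95% interval of the log2 fold change ran from -1.18 to 0.60.

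The other tested regulators were ATF5, DDIT3 (the proapoptotic factor CHOP) and TRIB3, a pseudokinase that restrains ATF4, with log2 fold changes from -0.39 to 0.15. Exons of ATF5 and DDIT3 overlap those of opposite-strand genes with more counts, by 565 bases with NUP62 and by 355 bases with MARS1. The library kit was stranded but the strand setting of the counting is not given in the sources used here, so these counts are uncertain.

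Of the stress effectors, 3 had positive and 3 negative log2 fold changes, none past the threshold. CHAC1, which degrades glutathione and lies at chr15:41245160-41248710, was at 3.78, 4.11 and 6.51 CPM with GFP and at 7.85, 8.23 and 7.31 CPM with POU5F1B. Each POU5F1B library was above each GFP library, and the log2 fold change was 0.74 ± 0.26 (adjusted p = 0.350, limma voom). DDIT4, an inhibitor of mTORC1 signalling also called REDD1, was at 7.15, 7.30 and 14.5 CPM with GFP and at 16.0, 16.1 and 12.4 CPM with POU5F1B. In the libraries numbered 1 and 2 it was over 2-fold higher with POU5F1B, whereas among those numbered 3 the GFP library was the higher of the pair.

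VLDLR, a lipoprotein receptor that is also an ATF4 target, showed the same dependence in the other direction. It was at 78.1, 73.7 and 32.5 CPM with GFP and at 29.3, 32.9 and 41.9 CPM with POU5F1B, so that GFP replicate 3 sat among the POU5F1B libraries. Its log2 fold change was -0.75 ± 0.37 with all 6 libraries (adjusted p = 0.481) and -1.30 ± 0.11 with replicates 1 and 2 (adjusted p = 5.91e-06, both limma voom). The 4 tested neighbours of VLDLR within 1 Mb had a median of -0.52. GDF15, a secreted stress cytokine, was at 8.24, 8.97 and 8.51 CPM with GFP and at 6.12, 4.62 and 6.23 CPM with POU5F1B. It was lower in every POU5F1B library (log2 -0.60 ± 0.21, adjusted p = 0.349, limma voom), opposite in sign to CHAC1. SESN2, a sensor of leucine, and STC2, a secreted glycoprotein, had log2 fold changes of 0.46 and -0.18.

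All 3 enzymes of serine synthesis had positive values. PSPH, the phosphatase of the last step (chr7:56078744-56119297), was at 60.4, 53.7 and 58.9 CPM with GFP and at 81.0, 78.2 and 75.0 CPM with POU5F1B. The groups did not overlap, the fold change was 1.36, and the log2 fold change was 0.44 ± 0.11 (adjusted p = 0.247 by limma voom and 0.0329 by DESeq2). PHGDH, the rate-limiting first enzyme, was at 102, 123 and 74.8 CPM with GFP and at 124, 121 and 108 CPM with POU5F1B. Its log2 fold change was 0.26 ± 0.19 with the low GFP replicate 3 and 0.12 ± 0.10 with replicates 1 and 2 (limma voom, adjusted p = 0.403). PSAT1, the transaminase between them, had a log2 fold change of 0.22 with all 6 libraries and 0.33 with replicates 1 and 2.

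Of the folate enzymes, SHMT2, the mitochondrial serine hydroxymethyltransferase, was at 231, 257 and 337 CPM with GFP and at 351, 334 and 347 CPM with POU5F1B. The SD of the POU5F1B libraries was 9.07 CPM, whereas GFP replicate 3 reached into their range, and the log2 fold change was 0.34 ± 0.15 (adjusted p = 0.432, limma voom). For SHMT2 it was 0.49 without GFP replicate 3 (adjusted p = 0.0146) and 0.48 ± 0.08 with replicates 1 and 2 (adjusted p = 0.000838, both limma voom). ALDH1L2 was scarce, at 1.18, 1.67 and 7.55 CPM with GFP and at 1.49, 1.57 and 1.99 CPM with POU5F1B. Only GFP replicate 3 stood out, at 3.79 times the highest other library, and ALDH1L2 shares exonic bases with the opposite-strand gene WASHC4, which was also highest there (727 counts, against 147 to 299). MTHFD2 and MTHFD1L, mitochondrial enzymes that carry one-carbon units on to formate, were each at 1.92 times the mean of the other GFP libraries in GFP replicate 3. With replicates 1 and 2 their log2 fold changes were 0.68 and 0.38, and across all 6 they were 0.40 and 0.14, not past the threshold.

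CBS, cystathionine β-synthase, had the largest log2 fold change and the smallest p of the 45 genes. CBS (chr21:44473301-44497053, minus strand) condenses homocysteine with serine in the first step of transsulfuration. It was at 19.1, 23.2 and 23.7 CPM with GFP and at 45.8, 40.7 and 40.7 CPM with POU5F1B, with SDs of 2.53 and 2.96 CPM (n = 3 each). Here GFP replicate 3 lay next to GFP replicate 2, and the fold change was 1.93 (log2 0.95 ± 0.15, adjusted p = 0.185 by limma voom and 1.51e-05 by DESeq2). The 19 tested genes within 1 Mb had a median of 0.46 on the same scale. Of them, 10 were also higher in every POU5F1B library, where 10.2% of all tested genes were. CTH, the next enzyme of the same pathway, had values on the other side: its log2 value was -0.71 ± 0.23 (adjusted p = 0.319, limma voom), with each POU5F1B library, at 7.97 to 8.32 CPM, below each GFP library, at 10.2 to 15.8 CPM. The 5 tested neighbours of CTH within 1 Mb had a median of -0.45, and 2 of them were also lower in every POU5F1B library (9.24% of all tested genes). For other genes higher in every POU5F1B library, neighbours also higher were 11 of 24 for CEBPB, 12 of 48 for CHAC1 and 9 of 37 for SESN2. They were 11 of 38 for PCK2, 2 of 11 for PSPH, 3 of 28 for SHMT1, 1 of 10 for SLC1A4 and 0 of 7 for SLC7A1. Neighbours also lower were 9 of 54 for ATF5, 4 of 44 for GDF15, 1 of 7 for SLC38A2 and 0 of 4 for LARS1.

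ASNS, asparagine synthetase and a standard reporter of the amino acid response, was at 126, 199 and 452 CPM with GFP and at 200, 211 and 251 CPM with POU5F1B. The GFP libraries thus spanned both sides of the POU5F1B libraries, and the log2 fold change was -0.03 with a 95% interval from -1.05 to 0.99. With replicates 1 and 2 it was 0.35 ± 0.15 (limma voom, adjusted p = 0.0995). PCK2, mitochondrial PEP carboxykinase, was 0.37 higher on the log2 scale without overlap (limma voom, adjusted p = 0.320). The proline enzymes PYCR1 and ALDH18A1 and the alanine transaminase GPT2 had log2 fold changes from -0.04 to 0.

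**Figure D2:**
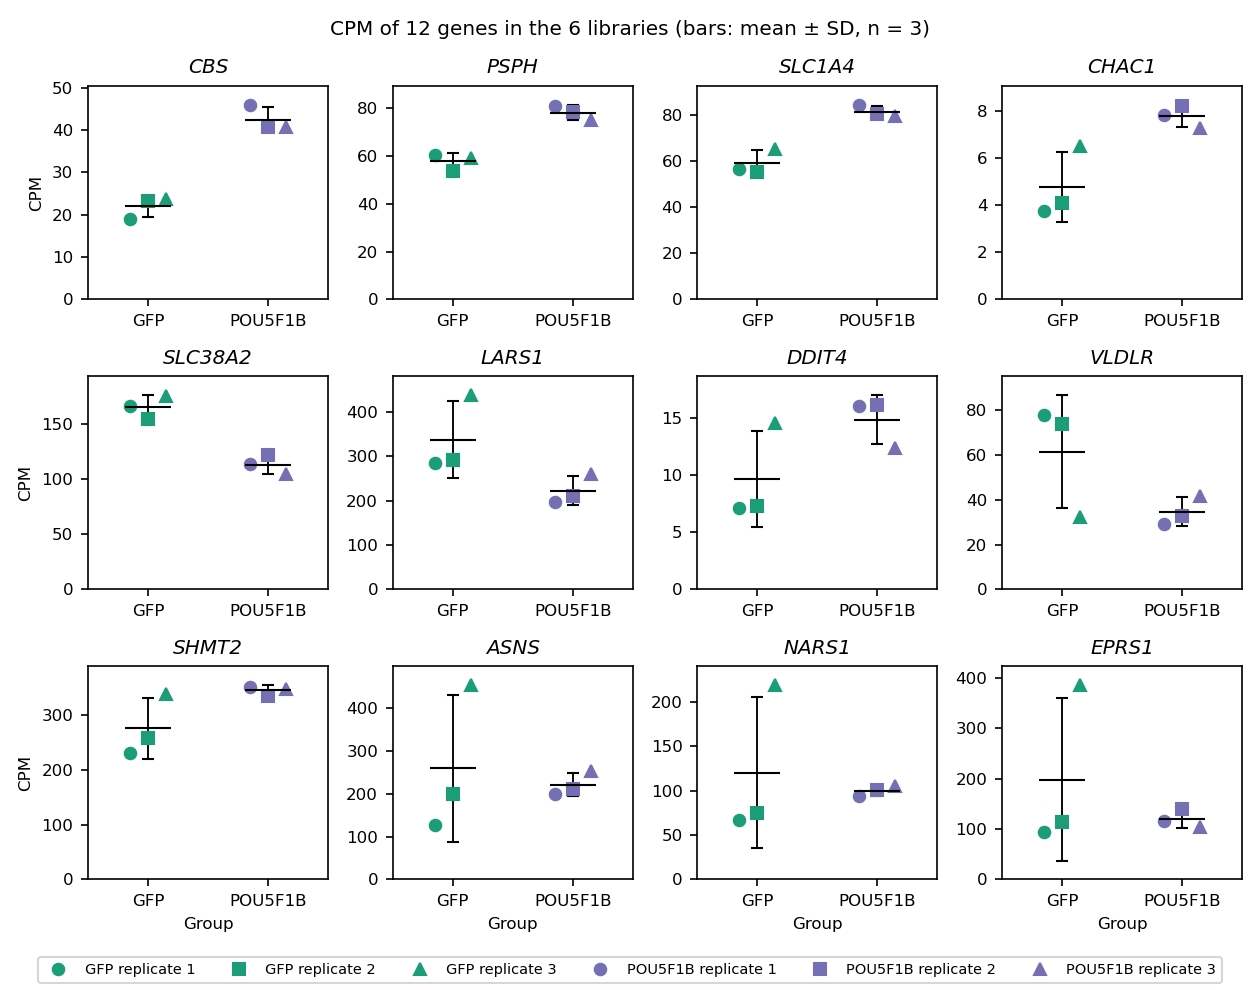
CPM (y axis, from 0) of 12 genes in each library, by group (x axis), with symbols for replicates and bars for the mean ± SD (n = 3). CBS, PSPH, SLC1A4 and CHAC1 are higher, and SLC38A2 and LARS1 lower, in all 3 POU5F1B libraries, whereas GFP replicate 3 (green triangle) is far from the other GFP libraries for ASNS, NARS1, EPRS1, DDIT4 and VLDLR.

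Transporters had 3 positive and 6 negative log2 fold changes, and a pair of small neutral amino acid carriers went opposite ways. SLC38A2, the sodium-coupled carrier SNAT2 that cells induce when amino acids are scarce, lies at chr12:46751971-46766556. It was at 166, 155 and 175 CPM with GFP and at 113, 122 and 104 CPM with POU5F1B. The groups did not overlap, and the level was 1.46-fold lower with POU5F1B (log2 -0.55 ± 0.11, adjusted p = 0.207 by limma voom and 0.00369 by DESeq2). Its 7 tested neighbours within 1 Mb, SLC38A1 among them, had a median of -0.49. SLC1A4, the alanine, serine and cysteine exchanger ASCT1, was at 56.5, 55.2 and 65.4 CPM with GFP and at 84.0, 80.2 and 79.6 CPM with POU5F1B. It was thus higher in all 3 POU5F1B libraries (log2 0.47 ± 0.12, adjusted p = 0.243 by limma voom and 0.0233 by DESeq2).

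SLC7A11, the cystine and glutamate antiporter xCT, varied most of all 45 genes, at 1.18, 4.18 and 31.1 CPM with GFP and at 3.45, 3.79 and 5.98 CPM with POU5F1B. Its level in GFP replicate 3 was 11.6 times the mean of the other GFP libraries, so the log2 fold change of -0.31 had a 95% interval from -2.93 to 2.31. SLC1A5 was high in both libraries numbered 3, at 2670 CPM with GFP and 2055 CPM with POU5F1B against 1006 to 1129 CPM in the other 4. SLC7A5, the light chain of the leucine transporter LAT1, was also highest in those libraries, at 716 and 699 CPM against 432 to 504 CPM. SLC3A2, the heavy chain that SLC7A5 and SLC7A11 both need, was at 336 to 345 CPM with GFP, 295 and 289 CPM in POU5F1B replicates 1 and 2, and 397 CPM in POU5F1B replicate 3.

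The tRNA synthetases, which charge each transfer RNA with its amino acid, had a median of -0.02 on the log2 scale, which was 0.21 without GFP replicate 3 and 0.21 with replicates 1 and 2. LARS1, for leucine, was at 285, 291 and 437 CPM with GFP and at 198, 210 and 260 CPM with POU5F1B. It was the one synthetase of the 9 whose groups did not overlap (log2 -0.58 ± 0.20, adjusted p = 0.347, limma voom). With replicates 1 and 2 the log2 fold change of LARS1 was -0.51 ± 0.08 (adjusted p = 0.000335, limma voom). EPRS1, the joint glutamate and proline enzyme, was at 95.2, 114 and 385 CPM with GFP and at 116, 140 and 105 CPM with POU5F1B. GFP replicate 3 was 2.75 times the highest other library, and the log2 fold change of -0.43 had a 95% interval from -1.64 to 0.78. NARS1, for asparagine, had a like pattern, at 67.3, 74.4 and 218 CPM with GFP and at 93.8, 101 and 105 CPM with POU5F1B. All 9 synthetases were highest in GFP replicate 3, with SARS1 the least raised there, at 1.11 times the mean of the other GFP libraries.

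That library was the highest of the 6 for 27 of the 45 genes (60.0%, against 34.6% of all tested genes) and the lowest for 3 (6.67%, against 29.2%). It was over 2-fold above each other library for 5 genes, CEBPG, ALDH1L2, SLC7A11, NARS1 and EPRS1 (11.1%, against 5.09%). The 3 for which it was lowest were PHGDH, SHMT1 and SLC7A1. Relative to the mean of GFP replicates 1 and 2, the median level in GFP replicate 3 was 1.46 over the group, 1.92 over the folate enzymes, 1.61 over the synthetases and 1.03 over the serine synthesis enzymes, against 1.02 over all tested genes. Of the 14 genes with the promoter motif, 10 were highest in GFP replicate 3, at a median of 1.77 times the mean of the other GFP libraries. Of the 24 with a window and no motif, 12 were highest there, at a median of 1.18 times. The median log2 fold change of POU5F1B over GFP with replicates 1 and 2 was 0.23 with the motif and 0.20 without it.

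**Figure D3:**
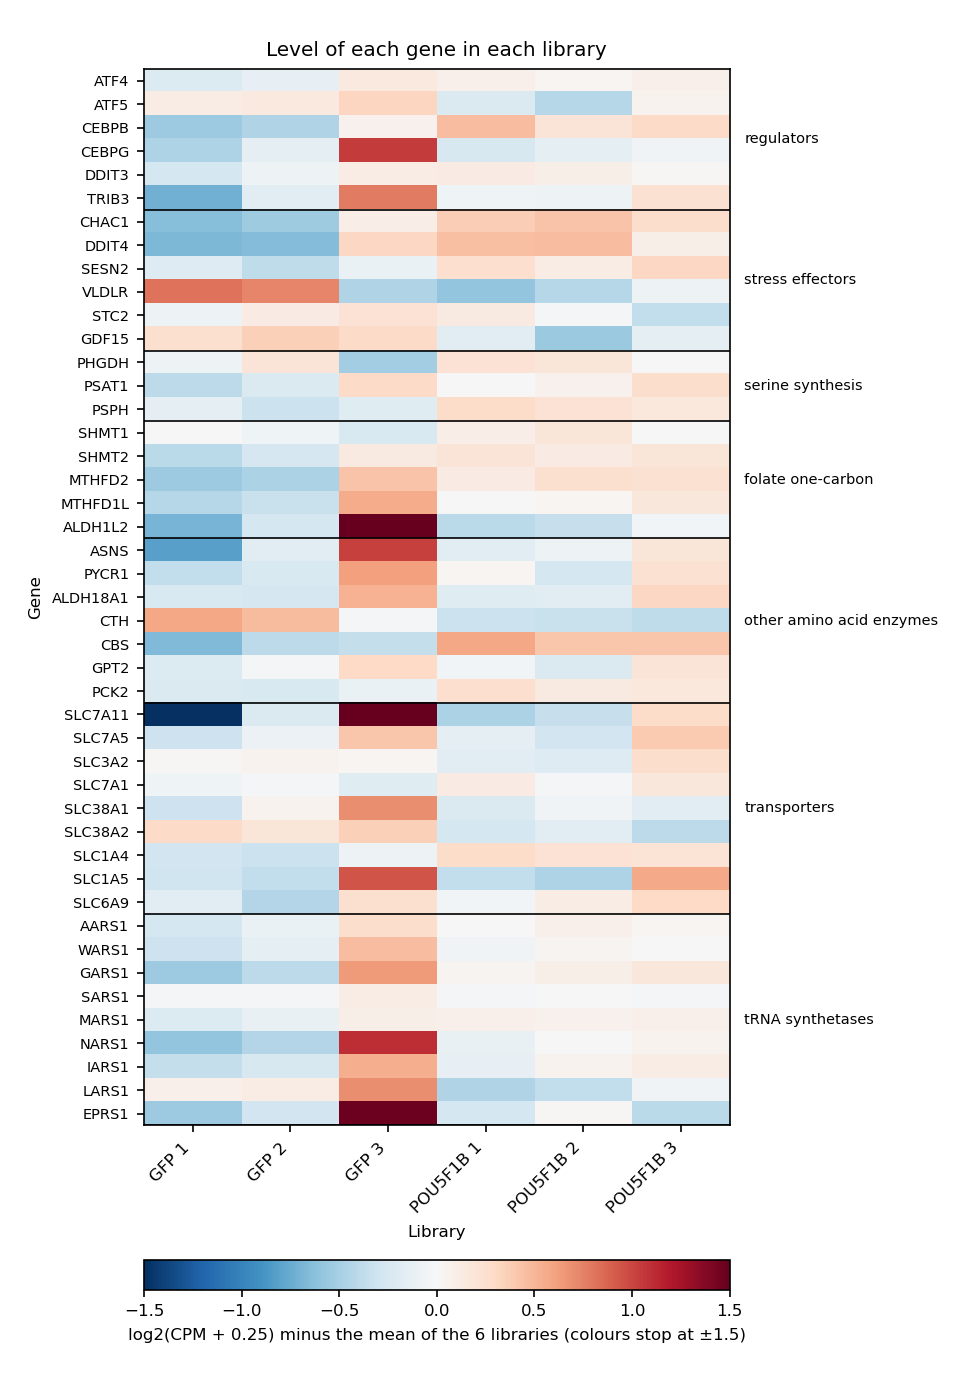
Heat map of the 45 tested genes (rows, by role) in the 6 libraries (columns). Colour is log2(CPM + 0.25) minus the mean of the gene over the 6 libraries, cut at ±1.5. The GFP replicate 3 column is red for most genes, including all 9 tRNA synthetases, and blue for PHGDH and VLDLR.

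With replicates 1 and 2 alone, 4 libraries, more genes passed the test, in the group as over all genes. By limma voom, 4 of the 45 genes were past the threshold: CHAC1, DDIT4 and CBS rose (2.01-fold, 2.20-fold and 2.03-fold) and VLDLR fell (2.47-fold lower). That share, 8.89%, was close to the 8.36% of all tested genes. At an adjusted p under 0.05 without the limit on fold, 14 rose (31.1%, against 14.1%) and 7 fell (15.6%, against 15.5%). The 14 were CEBPB, CHAC1, DDIT4, PSAT1, PSPH, SHMT2, MTHFD2, MTHFD1L, CBS, PCK2, SLC1A4, GARS1, NARS1 and IARS1, and the 7 were ATF5, VLDLR, GDF15, CTH, SLC3A2, SLC38A2 and LARS1. The median log2 values by role were 0.38 for folate enzymes, 0.33 for serine synthesis, 0.24 for stress effectors, 0.23 for regulators, 0.21 for synthetases, 0.17 for other enzymes and -0.02 for transporters, against -0.0050 over all tested genes.

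The libraries numbered 3 were not used in that fit. They are the GFP library that stood apart and the POU5F1B library with the least POU5F1B, without a repeat of either. Their comparison is therefore a description and no test of that fit. Of the 14 genes that rose, 7 were also higher in POU5F1B replicate 3 than in GFP replicate 3 and 7 were lower, namely DDIT4, PSAT1, MTHFD2, MTHFD1L, GARS1, NARS1 and IARS1. Of the 7 that fell, 5 were also lower and VLDLR and SLC3A2 were higher. The same counts over all genes called in that fit were not made, so these have no background beside them. As all 9 synthetases were highest in GFP replicate 3, none could be higher in POU5F1B replicate 3. Their median log2 difference in that pair was -0.47, against 0.01 over all tested genes. The serine synthesis enzymes had a median of 0.35 in that pair, from -0.03 for PSAT1 to 0.52 for PHGDH.

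**Figure D4:**
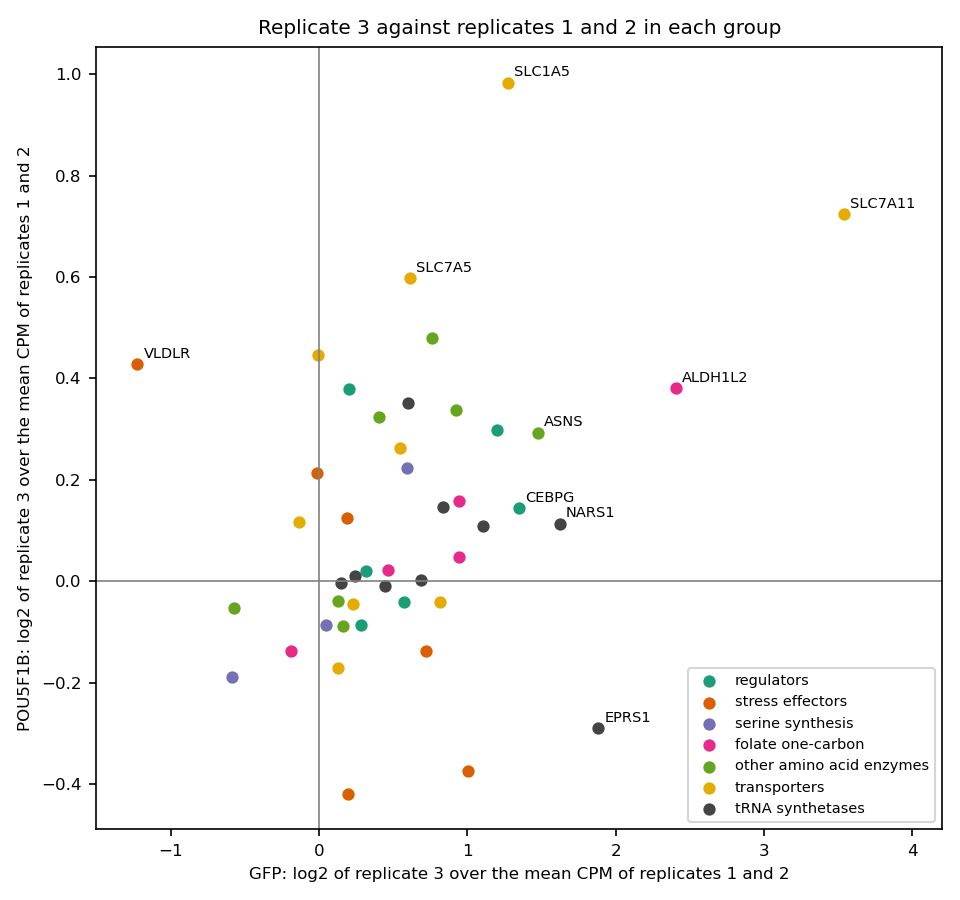
Level of each of the 45 genes in replicate 3 relative to the mean CPM of replicates 1 and 2, as a log2 ratio, in GFP (x axis) and POU5F1B (y axis) cells, coloured by role. Most genes lie right of 0, SLC7A11, ALDH1L2 and EPRS1 farthest, at 11.6, 5.30 and 3.68 times before the log, while the POU5F1B ratios stay between 0.748 (STC2) and 1.98 times (SLC1A5).

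Other genes of the pathway were compared in the same way. Of 92 genes in 6 lists, 84 were tested, and none had an adjusted p under 0.05 (limma voom, all 6 libraries). At an unadjusted p under 0.05, 1 of 14 genes of the eIF2 kinases and phosphatase was higher and 0 lower, and for 14 further ATF4 pathway genes these counts were 3 and 1. They were 0 and 0 of 15 further serine and one-carbon genes, 0 and 0 of 14 further transporters, and 0 and 4 of 15 genes of the unfolded protein response outside the PERK branch. Over all tested genes, 6.07% were higher and 5.82% lower at that limit. ATF3, a stress-induced bZIP factor, had the smallest p among the further ATF4 genes. It was at 19.1, 15.5 and 11.4 CPM with GFP and at 48.7, 46.9 and 33.4 CPM with POU5F1B, a larger log2 fold change than that of any of the 45 genes (1.49 ± 0.25, limma voom, adjusted p = 0.185).

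In 4 other lists the gene with the smallest p was EIF2AK1, the heme-regulated eIF2 kinase (log2 fold change 0.28), MTHFD2L, a mitochondrial folate enzyme (-0.47), SLC36A4, an amino acid carrier (-0.34), and SEL1L, of the endoplasmic reticulum degradation complex (-0.60). For the unfolded protein response list the median was -0.19 on the log2 scale, and 7 of the 15 genes were lower in every POU5F1B library and 0 higher, where 9.24% and 10.2% of all tested genes were. With replicates 1 and 2, 8 of the 15 had an adjusted p under 0.05 and were lower, and 0 were higher, where 15.5% and 14.1% of all tested genes were. In that fit the counts of higher and lower genes were 6 and 2 of the 14 eIF2 genes, 6 and 4 of the 14 further ATF4 genes (3 past the threshold), 2 and 2 of the 15 one-carbon genes and 3 and 3 of the 14 transporters (2 past the threshold). These lists were chosen with results of these data known, and so their counts are descriptions.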

How the data were processed

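PolyA RNA of 6 libraries was prepared with a stranded kit. The authors deposited whole-number read counts per gene, without normalization, made by mapping to hg19 with HISAT2 and counting with featureCounts over genes and transposable elements. The strand setting and the gene annotation release are not given in the sources used here. Samples were grouped by title.

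From the deposited counts, 14286 genes were kept by edgeR 4.0.16 (filterByExpr), with TMM scaling. Groups were compared with voom of limma 3.58.1 in R 4.3.3, the test in the study's methods, p-values adjusted over all 14286 genes (Benjamini-Hochberg) and a 2-fold limit. Fold changes are on voom's log2 scale. CPM are counts scaled to 1000000 per TMM-scaled library. A floor of 3 counts was 0.228 to 0.277 CPM and covers counting error only. The alternatives were edgeR's quasi-likelihood test, DESeq2 1.42.0, quality weights, other scalings and filters, a replicate block, replicates 1 and 2 only, and leaving out each library. Non-overlap counts without libraries were added after seeing the data. The tests were tested on simulated data.

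Gene symbols were matched to 87.4% of identifiers. Coordinates are GRCh37, from GENCODE. Processed pseudogenes named after a gene of the group held at most 0.475% of its counts (ATF4P3), and exons of 17 of the 46 overlap an opposite-strand gene. Values in every library were given for ATF4 and, per role, for the genes with the smallest p, the largest fold change and the widest range, and for genes past the threshold with all libraries or with replicates 1 and 2. SLC1A4, NARS1, CTH, PCK2, SLC1A5, SLC7A5, SLC3A2 and the motif genes were named after their values were seen. The result of 1 pathway list is not reported here. The genes and lists were chosen with earlier results of these data known.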

Additional observations from a re-analysis of the deposited data

How the results depend on the processing

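Over all genes, the count past the threshold was 0 with limma voom and with edgeR's quasi-likelihood test (867 higher and 831 lower at an unadjusted p under 0.05 in voom), 232 with DESeq2, 1077 with quality weights, 4 without the filter and 1194 with replicates 1 and 2 only, and it ranged from 0 to 595 when 1 library was left out (595 without GFP replicate 3, 5 without POU5F1B replicate 3). Of the 45 genes, 0 were past the threshold with all 6 libraries, 3 with quality weights (DDIT4, CBS and VLDLR) and 4 with replicates 1 and 2 only (8.89%, against 8.36% of all tested genes). When 1 library was left out they were 0 to 2 (DDIT4 and VLDLR without GFP replicate 3). These counts are to be read beside those over all genes in the same settings, given above. At an adjusted p under 0.05 without the fold limit they were 4 with DESeq2 (8.89%, against 2.9% of all genes), 21 with quality weights (46.7%, against 27.8%), 21 with replicates 1 and 2 only (46.7%, against 29.7%) and 0 to 15 when 1 library was left out (15 without GFP replicate 3, 33.3% against 12.1%).

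With a replicate block, 1 gene of all was past the threshold and 0 of the 45, with or without the fold limit. Libraries with the same number deviated from their group means with correlations of 0.242, 0.0883 and 0.165, so the numbers were not taken to pair the libraries.

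Of the log2 fold changes of single genes under the alternatives, 600 kept their direction and side of the threshold, 9 passed the threshold and 66 changed sign, none of them past the threshold in the fit of all 6. With quality weights these were CEBPG 0.0402, ALDH1L2 0.0415, ASNS 0.28, PYCR1 0.24, ALDH18A1 0.11, GPT2 0.0230, SLC7A11 0.44, SLC7A5 0.0460, SLC1A5 0.0346, WARS1 0.16, SARS1 0.0068, NARS1 0.40 and EPRS1 0.13. With replicates 1 and 2 only they were CEBPG 0.0895, STC2 0.0121, ALDH1L2 0.10, ASNS 0.35, PYCR1 0.17, ALDH18A1 0.0555, SLC7A11 0.64, WARS1 0.19, NARS1 0.44 and EPRS1 0.27. With total counts they were ASNS 0.0027, PYCR1 0.0288, ALDH18A1 0.0125, SLC7A5 0.0168, WARS1 0.0196 and SARS1 0.0012. PYCR1 was 0.0095 without the filter and 0.0096 with at least 10 counts in every library. TRIB3 was -0.0674 with edgeR and -0.0567 with DESeq2, and IARS1 -0.0194 and -0.0112.

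When 1 library was left out, the genes that changed sign ranged from -0.59 to 0.14 (CEBPG), -0.27 to 0.45 (TRIB3), -0.0394 to 0.44 (MTHFD1L), -1.04 to 0.23 (ALDH1L2), -0.44 to 0.45 (ASNS), -0.19 to 0.29 (PYCR1), -0.18 to 0.22 (ALDH18A1), -0.15 to 0.0805 (GPT2), -1.36 to 0.89 (SLC7A11), -0.21 to 0.17 (SLC7A5), -0.21 to 0.0112 (SLC3A2), -0.50 to 0.23 (SLC1A5), -0.0445 to 0.21 (AARS1), -0.17 to 0.20 (WARS1), -0.0219 to 0.55 (GARS1), -0.34 to 0.48 (NARS1), -0.13 to 0.30 (IARS1) and -0.80 to 0.18 (EPRS1). CBS ranged from 0.85 to 1.01, PSPH from 0.40 to 0.48, SLC1A4 from 0.44 to 0.53 and SLC38A2 from -0.60 to -0.48. The cause of these changes was not tested.

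The counts of genes higher without overlap were 9 to 10 (20.0% to 22.2%, against 11.8% to 16.9% of all tested genes) when any library but GFP replicate 3 was left out, and 28 with replicates 1 and 2 only (62.2%, against 33.8%). Those lower were 5 to 7 when 1 library was left out (11.1% to 15.6%, against 10.5% to 23.9% of all tested genes). With replicates 1 and 2 only they were 8 (17.8%, against 32.5%). Depth limits most the values of ALDH1L2, CHAC1, GDF15, SLC6A9 and SLC7A11, which were under 10 CPM in most libraries.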
